A study of Macaca mulatta with 10 samples.

Results

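The genes described here are those of the germ cell RNA and piRNA pathway in the testis of the juvenile rhesus macaque (Macaca mulatta). They were chosen by name from a list of 39 genes, and 35 of the 39 had a locus of their own among the 26813 loci in the deposited count table. The other 4 (TDRD5, TDRD6, TEX15 and WDR77) share a locus with another gene and were left out of every count below. The series asks how gene expression in the testis changes as undifferentiated spermatogonia commit to differentiation under gonadotropin.

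All 10 animals were wild-type juvenile males, and 1 RNA library of the right testis was sequenced from each. Animals TP07, TP09 and TP11 received a pulsatile infusion of vehicle and were 24, 14 and 15 months old. Animals TP08, TP10 and TP12 received pulses of FSH and LH for 48 h and were 22, 14 and 15 months old. Animals TP15, TP16, TP17 and TP18 received FSH and LH for 96 h and were all 14 months old. How long the vehicle infusions ran is not given in the labels. The 96 h animals carry the highest animal numbers, so a difference in handling by animal number and the 96 h treatment cannot be told apart. Library totals lay between 21824233 and 30375928 counts over the loci of the table. All values below are in this order of animals, as CPM (counts scaled to library size, with TMM factors), and each library is 1 replicate. The value after ± beside a log2 fold change is its standard error.

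PIWI-interacting RNAs (piRNAs) are small RNAs of the germ line that guide PIWI proteins to the transcripts and the chromatin of transposons. Their precursors are cut, trimmed and methylated in germ granules and on the surface of mitochondria, where tudor domain proteins hold the machinery together by binding methylated arginines. Germ cells also carry RNA-binding proteins that set when messenger RNAs are translated or degraded. Before puberty the germ cells of the primate testis are spermatogonia, which lie among immature Sertoli cells.

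All 35 members had counts in every library, the unstimulated testes included. These counts ran from 14 to 8596 per library, and 13 of 35 had under 100 counts in at least 1 library. Levels of different genes are compared here only as CPM per kb of exonic length in the merged transcript models. On that scale the tudor domain protein gene STK31 stood highest in vehicle, at a mean of 46.2 CPM per kb, and its lowest library lay above the highest of PUM2. PUM2, PIWIL4 and DAZL followed at 33.9, 31.9 and 26.3 CPM per kb, and the libraries of each pair of neighbours in that order overlapped. DDX4, TDRD3, UCHL1, PRMT5, MAEL, TDRD1 and PIWIL2 formed an overlapping run from 21.7 down to 15.5 CPM per kb. PIWIL1 was at 4.05 CPM per kb, so among the PIWI members the order was PIWIL4, PIWIL2 and PIWIL1, with no overlap between their vehicle libraries. PIWIL3 is not a member and is given with the other lists. BOLL and NANOS1 were lowest, at 0.512 and 0.59 CPM per kb, and overlapped each other.

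**Figure D1:**
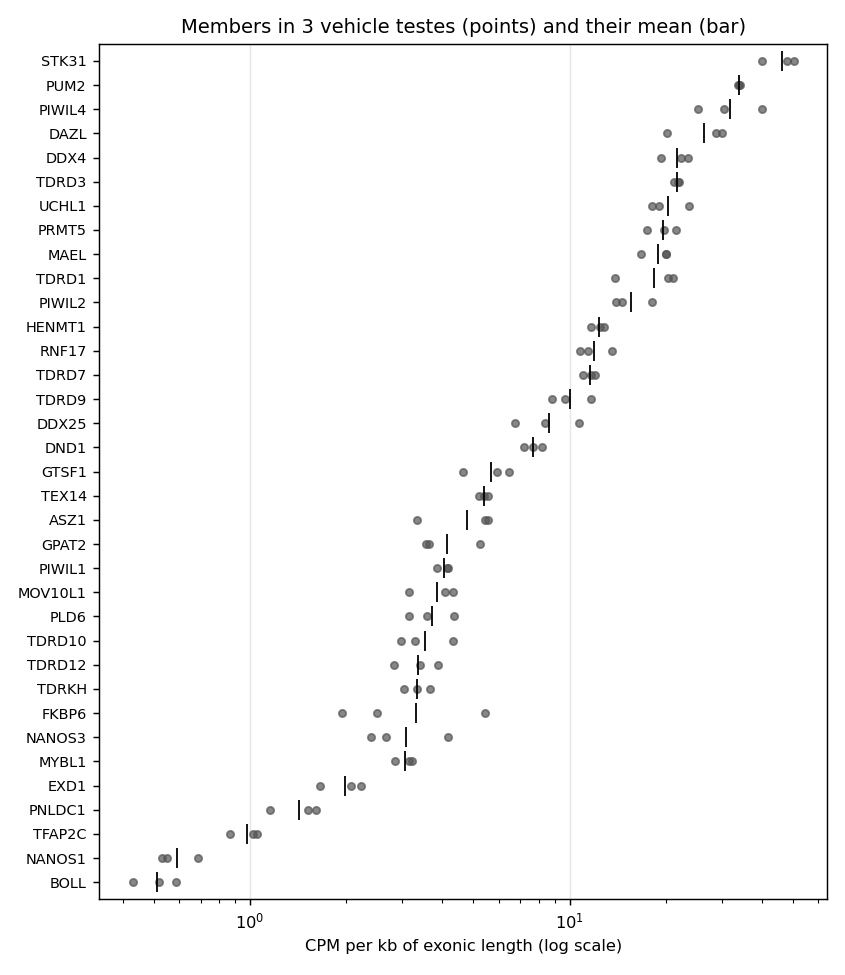
Level of each of the 35 members in the 3 vehicle testes, as CPM per kb of exonic length on a log axis. Points are animals and the bar is their mean. STK31 is highest at 46.2 CPM per kb, and BOLL is lowest at 0.512.

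Under gonadotropin most members had lower levels than in vehicle, and their median difference was larger at 96 h than at 48 h. At 48 h only DAZL fell and only PRMT5 rose among the 35 (edgeR quasi-likelihood test, adjusted p under 0.05). Over all loci 3.67% were called lower and 8.53% higher in that comparison. The members' median log2 fold change at 48 h was -0.33 (-0.07 for all loci), and 32 of 35 were below 0 (56.2% of all loci). Without TP10 the median at 48 h was -0.21, with 28 of 35 below 0. At 96 h against vehicle 17 of 35 members fell and MYBL1 rose, while 6.89% of all loci were called lower and 10.6% higher. The median at 96 h was -0.74 (-0.01 for all loci), and 31 of 35 were below 0 (51% of all loci). Both comparisons share the vehicle libraries. Whole-testis RNA cannot tell apart fewer germ cells, less RNA per germ cell and more RNA from other cells, because CPM is relative to each library. The 17 falls ranged from -0.68 to -1.10 on the log2 scale, with adjusted p from 0.00787 to 0.0493. For 20 members every 96 h library lay below every vehicle library, which held for 14.9% of all loci. At 48 h this was so for 8 members, against 18% of all loci. At an FDR under 0.05 the authors' deposited table has 18 members lower and 1 higher at 96 h, of which 17 were also called here, and 1 lower at 48 h.

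The 96 h count differed between fits that treated the age of the animals in different ways, and an effect of age itself was not tested. When the fit held a block for age class, which is 14 months, 15 months or more than 20, 0 of the 17 members passed. The median log2 fold change was then -0.49. Of the single falls described further on, those of DAZL, TDRD1, UCHL1, GPAT2, PIWIL2, STK31 and TDRD10 were smaller by over 1.5 times under this block, at log2 values of -0.39, -0.35, -0.47, -0.50, -0.49, -0.53 and -0.69. That fit called 1.54% of all loci lower at 96 h, so calls were fewer throughout. Without TP07 and TP08, the animals over 20 months, 0 members fell as well, with a median of -0.66 and 1.83% of all loci lower. With age in months as a covariate 7 fell, with a median of -0.65 and 3.21% of all loci lower. The count of falls was 5 without TP07, 3 without TP11, 11 without TP15 and 10 without TP17. In these fits 2.3%, 2.64%, 4.83% and 3.26% of all loci were lower, in the same order. Only 1 vehicle animal, TP09, had the age of the 96 h group, and it was the lowest vehicle library for 30 of 35 members. The 20 members with every 96 h library below every vehicle library lie below TP09 by definition, and no other member did. The median log2 ratio of the 96 h mean to TP09 was -0.57, a value with no test. As no 96 h animal was of another age, an effect of gonadotropin that differs by age cannot be told apart.

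**Figure D2:**
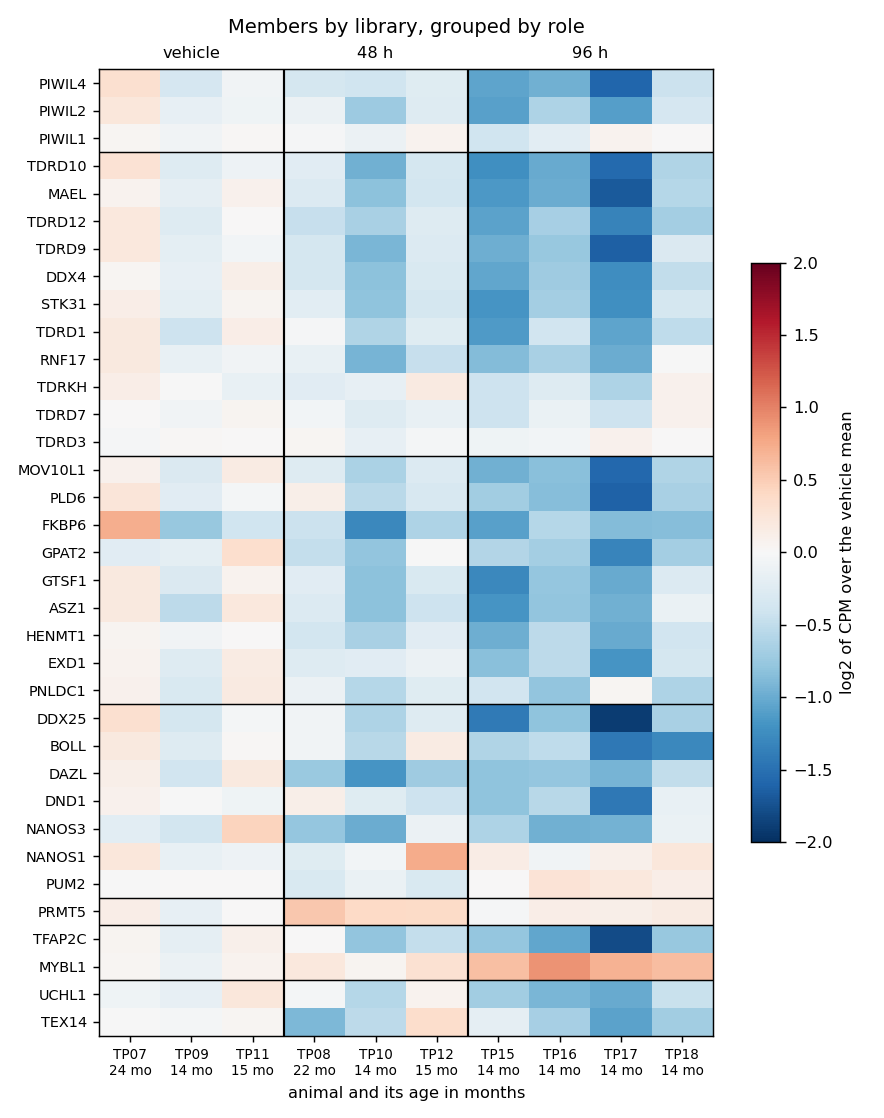
Level of each member in each library as log2 of its CPM over the vehicle mean, with animals in columns by group and members in rows by role. Blue is below and red above the vehicle mean. Most rows darken from vehicle to 96 h, with TP10 and TP17 the lowest libraries of their groups, while MYBL1 is red in all 4 of the 96 h columns.

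The PIWI proteins bind piRNAs. PIWIL2 and PIWIL4 act before birth and in spermatogonia in the mouse, and PIWIL1 is best known from later, meiotic and postmeiotic germ cells. PIWIL4 (chromosome 14, 87167803 to 87218310, all positions on rheMac8) was at 141, 88.9 and 107 CPM in vehicle, 88.1, 85.3 and 95.5 CPM at 48 h and 53.9, 57.6, 37.5 and 83.4 CPM at 96 h. All 96 h libraries were below all others, TP18 was the highest of them and TP17 the lowest, and the 3 libraries at 48 h lay close together. Its log2 fold change at 96 h was -0.95 ± 0.23 (adjusted p = 0.022 in edgeR), and at 48 h it was -0.33 ± 0.25 (adjusted p = 0.43 in edgeR). PIWIL2 (chromosome 8, 22175590 to 22265040) had 106, 81.7 and 85.7 CPM in the vehicle animals, 84, 55.1 and 76.4 CPM at 48 h and 43, 59.4, 42.3 and 72.3 CPM at 96 h. Vehicle and 96 h did not overlap, whereas 48 h overlapped with both. PIWIL2 fell at 96 h, with a log2 change of -0.75 ± 0.21 (adjusted p = 0.0327 in edgeR). PIWIL1 (chromosome 11, 130625980 to 130660067) measured 22.7, 21 and 22.5 CPM in vehicle, 21.7, 20.4 and 23.1 CPM after 48 h and 16.8, 19, 23.2 and 22.1 CPM after 96 h. Its groups overlapped throughout, and its log2 fold change at 96 h was -0.12 ± 0.13 (adjusted p = 0.527 in edgeR).

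The level of PIWIL1 relative to the other PIWI members was examined as a ratio within each library, a measure chosen after these values were seen. The log2 ratio of PIWIL1 to PIWIL4 averaged -2.32 ± 0.28 over the 3 vehicle animals (mean ± SD), -2.04 ± 0.02 over the 3 at 48 h and -1.47 ± 0.54 over the 4 at 96 h. The ratio of PIWIL1 to PIWIL2 was -2.04 ± 0.17 in vehicle, -1.70 ± 0.26 at 48 h and -1.39 ± 0.38 at 96 h. In both ratios all 96 h animals lay above all vehicle animals (two-sided exact permutation p = 0.0571 each, the smallest that 3 against 4 animals allow, and 0.0856 adjusted over 3 ratios). The ratio of PIWIL2 to PIWIL4 was -0.29 ± 0.15 in vehicle and -0.08 ± 0.23 at 96 h, with overlapping animals (exact permutation p = 0.286). With 3 against 4 animals this test could not give p below 0.05 whatever the values, so no conclusion is drawn from it for the 2 ratios with PIWIL1.

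**Figure D3:**
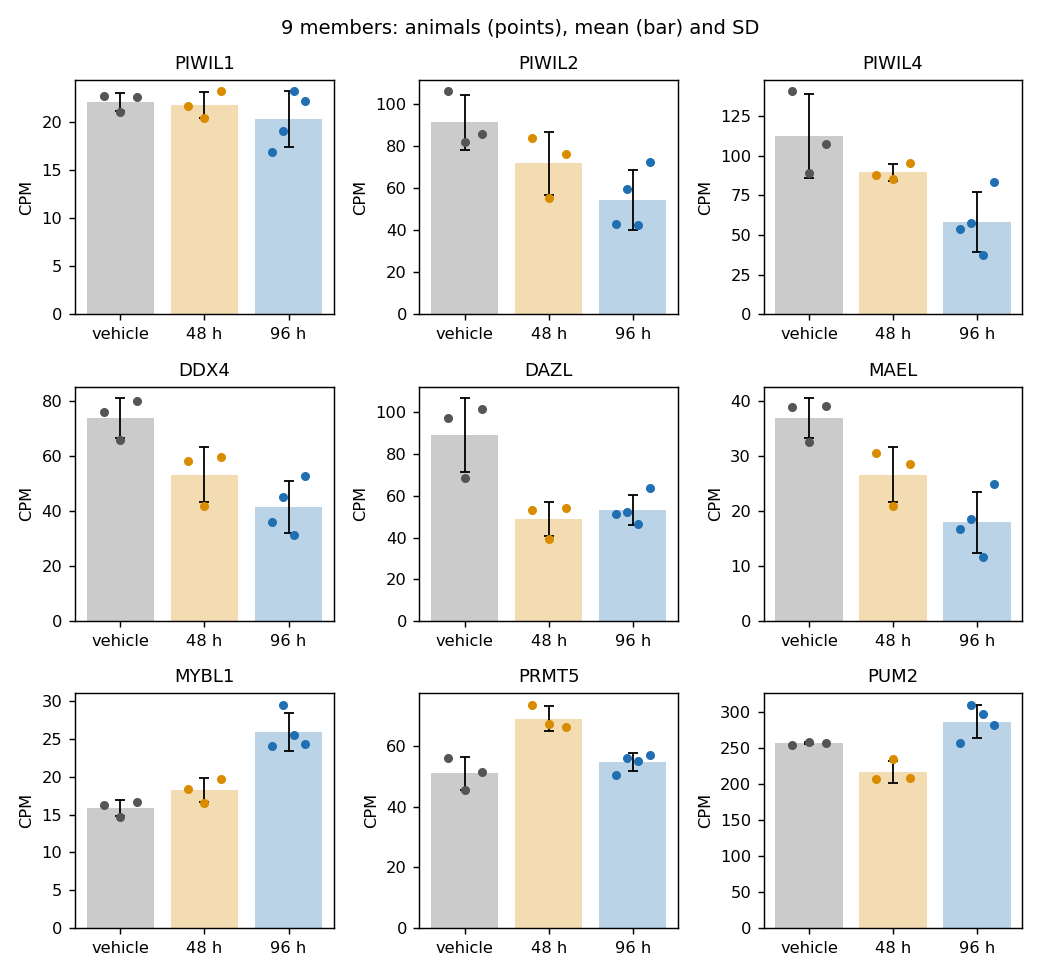
CPM of 9 members in vehicle (n = 3), 48 h (n = 3) and 96 h (n = 4), with animals as points, the mean as a bar from 0 and the SD as an error bar. PIWIL1 overlaps across groups, DAZL is already at 49.1 CPM at 48 h, MYBL1 is highest at 96 h, and PRMT5 is highest at 48 h.

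Germ granule and tudor domain genes made up 11 of the measured members. At 96 h 6 of them fell, 0 rose, and their median log2 fold change was -0.81. Over all loci 6.89% were lower and 10.6% higher at 96 h. At 48 h 0 passed the edgeR test in either direction and 2 had an unadjusted p below 0.05. No share of all loci was computed for that unadjusted threshold. DDX4, the VASA helicase found in germ granules of all germ cells (chromosome 6, 56664432 to 56737552), was at 76, 65.8 and 79.9 CPM in vehicle, 58.2, 41.7 and 59.6 CPM at 48 h and 36.1, 45.3, 31.4 and 52.6 CPM at 96 h. Each 48 h and each 96 h library was below the lowest vehicle library. The log2 fold change was -0.47 ± 0.19 (adjusted p = 0.136 in edgeR) at 48 h and -0.84 ± 0.18 (adjusted p = 0.0113 in edgeR) at 96 h. MAEL, which acts with the PIWI proteins in transposon silencing (chromosome 1, 200707117 to 200753840), had 38.9, 32.6 and 39.1 CPM in the vehicle animals, 30.5, 20.9 and 28.5 CPM at 48 h and 16.7, 18.5, 11.5 and 24.9 CPM at 96 h. The groups were again apart from vehicle at both times, and TP17 was at less than any other library. MAEL fell at 96 h, with a log2 change of -1.04 ± 0.22 (adjusted p = 0.011 in edgeR).

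TDRD12, a helicase needed for secondary piRNAs in the mouse (chromosome 19, 28552357 to 28659422), measured 32.5, 23.7 and 28.6 CPM in vehicle, 20.4, 18 and 23.8 CPM after 48 h and 13.5, 17.8, 11.2 and 17.6 CPM after 96 h. The 96 h libraries were below all libraries of both other groups. TDRD12 fell, with a log2 change of -0.91 ± 0.18 (adjusted p = 0.00787 in edgeR), the smallest adjusted p among the falls. TDRD10 (chromosome 1, 129132140 to 129185684) was at 11.5, 7.86 and 8.72 CPM in vehicle, 8.03, 4.8 and 7.31 CPM at 48 h and 4.02, 4.67, 3.19 and 6.19 CPM at 96 h. No 96 h library reached the lowest vehicle library, and it fell, at -1.05 ± 0.26 (adjusted p = 0.0209 in edgeR). Exons of TDRD10 share 163 bases with SHE on the other strand, and those of TDRD12 share 264 with SLC7A9. STK31 (chromosome 3, 84323215 to 84481959) had 179, 142 and 170.0 CPM in the vehicle animals, 141, 93.6 and 128 CPM at 48 h and 72.5, 102, 70 and 129 CPM at 96 h. TP18 at 96 h was close to TP12 at 48 h, yet every 96 h library was below vehicle, and STK31 fell, with a log2 change of -0.81 ± 0.22 (adjusted p = 0.0304 in edgeR). TDRD1, a scaffold of germ granules that binds PIWI proteins (chromosome 9, 110078435 to 110131750), measured 191, 125 and 184 CPM in vehicle, 163, 110.1 and 141 CPM after 48 h and 76.4, 128, 80.2 and 117 CPM after 96 h. Here TP16 at 96 h was above TP09 in vehicle, so the groups overlapped. TDRD1 passed near the threshold, at -0.73 ± 0.22 (adjusted p = 0.0466 in edgeR), and it passed in 10 of 23 alternative settings.

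The other tudor members did not pass at 96 h. TDRD9, a helicase of the piRNA pathway, and RNF17, a tudor protein of its own germ granules, had log2 fold changes of -0.84 and -0.58 (edgeR adjusted p = 0.0561 and 0.125). For TDRD9 all 96 h libraries lay below vehicle, and for RNF17 TP18 did not. TDRKH, TDRD7 and TDRD3 had log2 fold changes of -0.27, -0.20 and -0.01. TDRD3, a tudor protein that many cell types express, was at 84.4, 87.1 and 86.3 CPM in vehicle, 88.6, 76.7 and 83.5 CPM at 48 h and 80.8, 83.2, 91 and 86.1 CPM at 96 h. Its 10 libraries covered a narrow range and the groups overlapped, with an SE of 0.08 on the log2 scale at either time. Under RLE scaling and in the fits with age the value for TDRD3 at 96 h was just above 0.

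Genes of piRNA processing and of the mitochondrial surface numbered 9. At 96 h 5 fell, 0 rose, and the median log2 fold change was -0.79, where 6.89% of all loci were lower and 10.6% higher. At 48 h 0 passed the edgeR test and 1 had an unadjusted p below 0.05, again with no share of all loci computed. MOV10L1, the helicase that hands precursors to the processing machinery (chromosome 10, 92121316 to 92194281), had 22.9, 17.7 and 24.2 CPM in the vehicle animals, 18, 13.9 and 17.9 CPM at 48 h and 11, 12, 7.24 and 14.2 CPM at 96 h. TP17 was lowest, and all 96 h libraries were below vehicle. MOV10L1 fell, with a log2 change of -0.95 ± 0.21 (adjusted p = 0.0126 in edgeR). PLD6, the mitochondrial nuclease that cuts precursors (chromosome 16, 17333173 to 17340163), measured 16.2, 11.7 and 13.3 CPM in vehicle, 14.9, 9.45 and 11.1 CPM after 48 h and 8.52, 7.67, 4.5 and 8.78 CPM after 96 h. At 96 h its libraries were below those of both other groups, and it fell, with a log2 change of -0.90 ± 0.24 (adjusted p = 0.0282 in edgeR). HENMT1, the methyltransferase that marks the 3′ end of the finished piRNA (chromosome 1, 109611173 to 109628523), was at 37.2, 33.9 and 36.1 CPM in vehicle, 27.7, 22.8 and 30.5 CPM at 48 h and 18.2, 24.9, 17.8 and 27.5 CPM at 96 h. Each treated library at either time was below the lowest vehicle library. HENMT1 fell at 96 h, with a log2 change of -0.69 ± 0.16 (adjusted p = 0.017 in edgeR).

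GPAT2, a mitochondrial acyltransferase that takes part in primary piRNA production (chromosome 13, 91824716 to 91837996), had 16.8, 17.2 and 24.8 CPM in the vehicle animals, 14, 11.3 and 19.5 CPM at 48 h and 13, 12.2, 7.85 and 12.3 CPM at 96 h. TP11 was the highest of all, and each 96 h library was below vehicle. GPAT2 fell, with a log2 change of -0.79 ± 0.23 (adjusted p = 0.0385 in edgeR). EXD1, an adaptor of the secondary pathway (chromosome 7, 17556116 to 17602595), measured 7.83, 6.23 and 8.4 CPM in vehicle, 6.24, 6.42 and 6.93 CPM after 48 h and 4.21, 5.21, 3.29 and 5.88 CPM after 96 h. EXD1 fell at the threshold, with -0.68 ± 0.21 (adjusted p = 0.0493 in edgeR), and passed in 7 of 23 alternative settings. Its exons share 67 bases with CHP1 on the other strand, and those of GPAT2 share 34 with FAHD2A. The remaining 4 did not pass. GTSF1, a partner of PIWI proteins, ASZ1, a mitochondrial protein, and FKBP6, a co-chaperone, had log2 fold changes of -0.79, -0.71 and -0.83, each with an unadjusted p below 0.05 (adjusted p = 0.0508, 0.0951 and 0.115 in edgeR). FKBP6 was at 10.7 CPM in TP07 and between 2.63 and 4.88 CPM in the other 9 libraries. PNLDC1, the exonuclease that trims the 3′ end, had -0.41 ± 0.24 (adjusted p = 0.249 in edgeR).

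**Figure D4:**
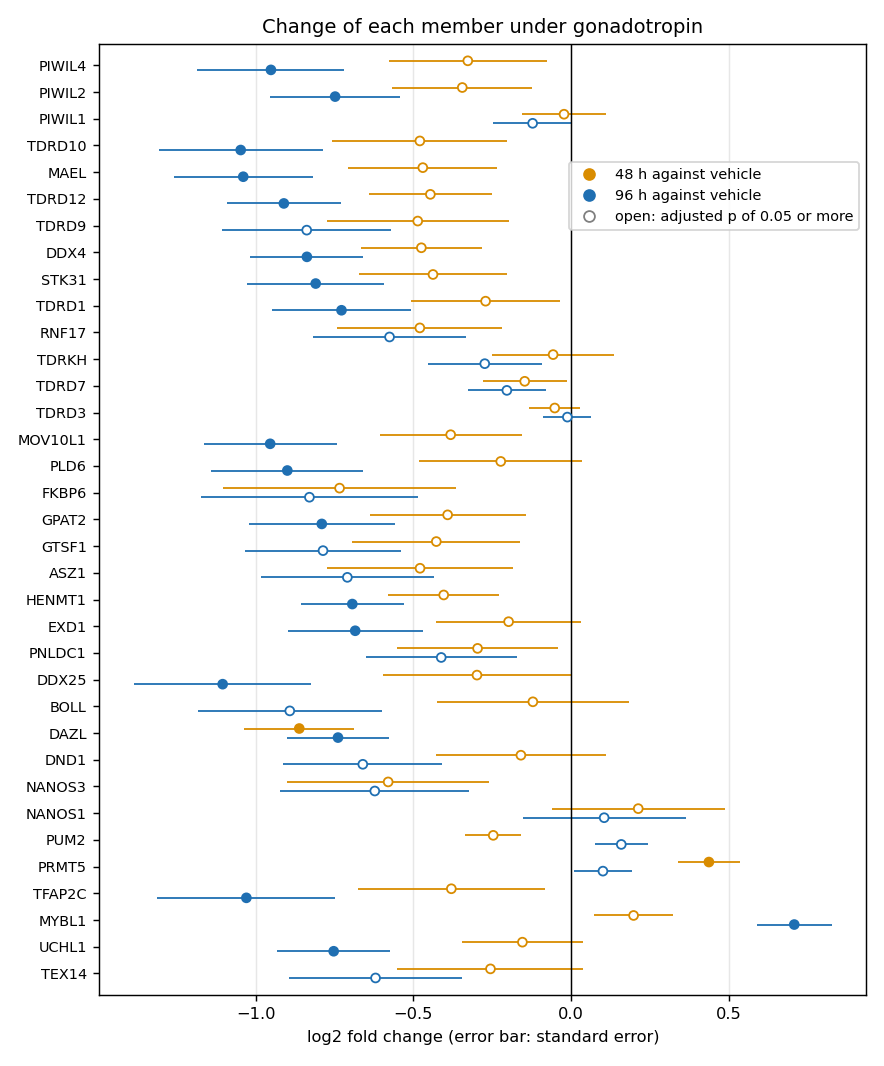
Log2 fold change of each member against vehicle at 48 h (orange) and 96 h (blue), with the standard error as a bar, filled where the edgeR adjusted p is below 0.05. Blue points lie left of orange ones in most rows; DAZL and PRMT5 are the filled points at 48 h, and MYBL1 is the filled point to the right at 96 h.

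Of the 7 RNA-binding regulators 2 fell at 96 h and 0 rose, where 6.89% of all loci were lower and 10.6% higher. Their median log2 change was -0.66. DAZL, which binds messenger RNAs and promotes their translation in germ cells (chromosome 2, 173244863 to 173263736), was at 97.2, 68.7 and 102 CPM in vehicle, 53.3, 39.6 and 54.4 CPM at 48 h and 51.2, 52.2, 46.6 and 63.7 CPM at 96 h. Every treated library was below every vehicle library, and the 48 h and 96 h libraries overlapped. DAZL fell at both times, with a log2 change of -0.86 ± 0.17 (adjusted p = 0.0098 in edgeR) at 48 h and -0.74 ± 0.16 (adjusted p = 0.012 in edgeR) at 96 h. Between 96 h and 48 h DAZL differed by 0.12 ± 0.16 (adjusted p = 0.688 in edgeR). Its 48 h call was lost without both animals over 20 months, where the log2 value was -0.86. Its 96 h call was lost in 5 of 23 settings, and with the age class block the 96 h value was -0.39 (adjusted p = 0.125 in edgeR). Reads of DAZL may be shared with the DAZ copies of the Y chromosome, so its level is uncertain. DDX25, a helicase known from spermatids and under androgen control in the mouse (chromosome 14, 118734069 to 118754687), had 21.5, 13.5 and 16.8 CPM in the vehicle animals, 16.5, 11.3 and 14.4 CPM at 48 h and 6.49, 9.91, 4.66 and 11 CPM at 96 h. Its 96 h libraries were below all others. DDX25 fell, with a log2 change of -1.10 ± 0.28 (adjusted p = 0.0228 in edgeR), the largest fall of any member in this fit.

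BOLL, the meiotic relative of DAZL, and DND1, which guards germ cell messenger RNAs, had log2 fold changes of -0.89 and -0.66 at 96 h (edgeR adjusted p = 0.0573 and 0.092). Both had every 96 h library below vehicle, but BOLL rested on 14 to 66 counts per library, and exons of DND1 share 76 bases with WDR55 on the other strand. NANOS3, which keeps early germ cells alive, measured 4.99, 4.47 and 7.79 CPM in vehicle, 3.37, 2.89 and 5.27 CPM after 48 h and 3.73, 2.97, 2.99 and 5.25 CPM after 96 h. The groups overlapped, and its log2 fold change was -0.62 ± 0.30 (adjusted p = 0.167 in edgeR). NANOS1, at 2.35 ± 0.34 CPM in vehicle (SD, n = 3), had 0.11 ± 0.26 at 96 h, just below 0 under upper-quartile scaling.

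PUM2, a Pumilio repressor that pairs with NANOS proteins and is broadly expressed (chromosome 13, 20205970 to 20317638), was at 255, 258 and 258 CPM in vehicle, 207, 235 and 208 CPM at 48 h and 258, 311, 297 and 283 CPM at 96 h. The vehicle libraries were nearly equal, those at 48 h were all lower, and those at 96 h were all above the 48 h ones. PUM2 was the only member called between 96 h and 48 h, with 0.41 ± 0.08 (adjusted p = 0.0488 in edgeR), and in that comparison 0.817% of all loci were higher. It passed in 6 of 23 alternative settings, among them exactTest, DESeq2 and voom, with log2 values from 0.35 to 0.47 over the 23 settings. Against vehicle PUM2 was not called at either time, with -0.25 ± 0.09 at 48 h and 0.16 ± 0.08 at 96 h.

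PRMT5 makes the symmetric arginine marks that tudor domains read, and in all cells it also methylates the Sm proteins of splicing complexes. PRMT5 (chromosome 7, 84255398 to 84264388) had 56.1, 45.4 and 51.5 CPM in the vehicle animals, 73.8, 67.2 and 66.2 CPM at 48 h and 50.4, 56.1, 55.1 and 57.2 CPM at 96 h. All 48 h libraries were above all others, and 96 h overlapped with vehicle. PRMT5 rose at 48 h by 0.44 ± 0.10 (adjusted p = 0.0157 in edgeR), and at 96 h the difference from vehicle was 0.10 ± 0.09 (adjusted p = 0.469 in edgeR). From 48 h to 96 h the log2 difference was -0.34 ± 0.09 (adjusted p = 0.1 in edgeR). The 48 h call was lost under upper-quartile scaling, without TP08, TP09 or TP11, without both animals over 20 months, at an adjusted p under 0.01 and with glmTreat against a fold of 1.2. The log2 value at 48 h lay between 0.31 and 0.51 over all 23 settings.

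The 2 transcription factors were called in opposite directions. MYBL1 (A-MYB), which switches on piRNA precursor and pathway genes at meiosis in the mouse (chromosome 8, 64706607 to 64755459), measured 16.2, 14.7 and 16.7 CPM in vehicle, 18.4, 16.5 and 19.7 CPM after 48 h and 24.1, 29.6, 25.6 and 24.4 CPM after 96 h. All 96 h libraries were above all others. MYBL1 rose at 96 h by 0.71 ± 0.12 (adjusted p = 0.0033 in edgeR) and passed in all 23 alternative settings, with log2 values from 0.56 to 0.83. At 48 h its log2 fold change was 0.20 ± 0.12 (adjusted p = 0.329 in edgeR), and from 48 h to 96 h it was 0.51 ± 0.12 (adjusted p = 0.0685 in edgeR). TFAP2C, a factor of primordial germ cells and early spermatogonia (chromosome 10, 7787951 to 7797942), was at 3.1, 2.63 and 3.2 CPM in vehicle, 3, 1.73 and 2.14 CPM at 48 h and 1.74, 1.45, 0.86 and 1.76 CPM at 96 h. No 96 h library reached vehicle, and it fell, with a log2 change of -1.03 ± 0.28 (adjusted p = 0.0304 in edgeR) on 17 to 99 counts per library.

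UCHL1 and TEX14 complete the list. UCHL1, a deubiquitinase used as a spermatogonial marker (chromosome 5, 41033986 to 41045418), had 33.4, 31.7 and 41.5 CPM in the vehicle animals, 34.5, 24 and 37.3 CPM at 48 h and 21.8, 18.8, 17.7 and 26.1 CPM at 96 h. The 48 h libraries overlapped with vehicle, the 96 h ones did not, and UCHL1 fell at 96 h, with a log2 change of -0.75 ± 0.18 (adjusted p = 0.0174 in edgeR). TEX14, which keeps the bridges between dividing germ cells open (chromosome 16, 30950999 to 31091236), measured 36.1, 35 and 37.3 CPM in vehicle, 19.5, 25.1 and 46.2 CPM after 48 h and 31.8, 22.9, 17.2 and 22.2 CPM after 96 h. Vehicle libraries were close together, but those at 48 h overlapped with both other groups. TEX14 had -0.62 ± 0.28 (adjusted p = 0.142 in edgeR) at 96 h and did not pass, although its 96 h libraries were all below vehicle.

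Between 96 h and 48 h the edgeR test called 0 members lower and 0.25% of all loci. At an unadjusted p below 0.05 in that test there were 11 members lower and 2 higher. The share of all loci at that threshold was not computed, so nothing is concluded from these counts. DESeq2 called 2 members lower, and 2.94% of all loci. The median log2 difference was -0.36 (0.02 for all loci), and 31 of 35 were below 0 (47.7% of all loci). With the age class block the median was -0.10, with 24 of 35 below 0. The libraries of PIWIL4, TDRD12, PLD6, DDX25, EXD1 and PRMT5 at 96 h were all below those at 48 h, 6 of 35 members, against 8.61% of all loci.

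Within a group many members were high or low in the same animal. Among vehicle animals TP09 was lowest for 30 of 35 members, and TP07 was highest for 19. At 48 h TP10 was lowest for 28 members. At 96 h TP17 was lowest for 22 members and TP18 highest for 24. The summed level of the 35 members was 1775, 1449 and 1687 CPM in vehicle, 1425, 1166 and 1404 CPM at 48 h, and 1058, 1269, 1037 and 1396 CPM at 96 h. No treated animal reached the lowest vehicle animal in this sum, although TP08, TP12 and TP18 came near it. The per-library median of the log2 ratio to the vehicle mean was -0.38 in TP18 and -1.05 in TP17.

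Germ cell markers outside the pathway had lower summed levels in every treated animal than in any vehicle animal. Of 31 such markers 24 were measured. At 96 h 9 of the 24 fell (MAGEA4, FGFR3, ID4, SOHLH1, DPPA4, GFRA1, KIT, SYCP1 and TKTL1) and 0 rose. Over all loci 6.89% were lower and 10.6% higher. The median of all 24 was -0.67, beside -0.74 for the members. These marker calls were not examined with the age class block. At 48 h GFRA1 fell and DMRT1 rose, with a median of -0.39, where 3.67% of all loci were lower and 8.53% higher. Their summed level was 814 to 951 CPM in vehicle, 552 to 762 CPM at 48 h and 463 to 690 CPM at 96 h, and the lowest animal was TP10 at 48 h and TP17 at 96 h, as for most members. Of 9 spermatid markers 3 were measured, with sums of 15.8 to 17.8 CPM in vehicle and 7.95 to 11.9 CPM at 96 h, and 1 of them fell at 96 h.

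**Figure D5:**
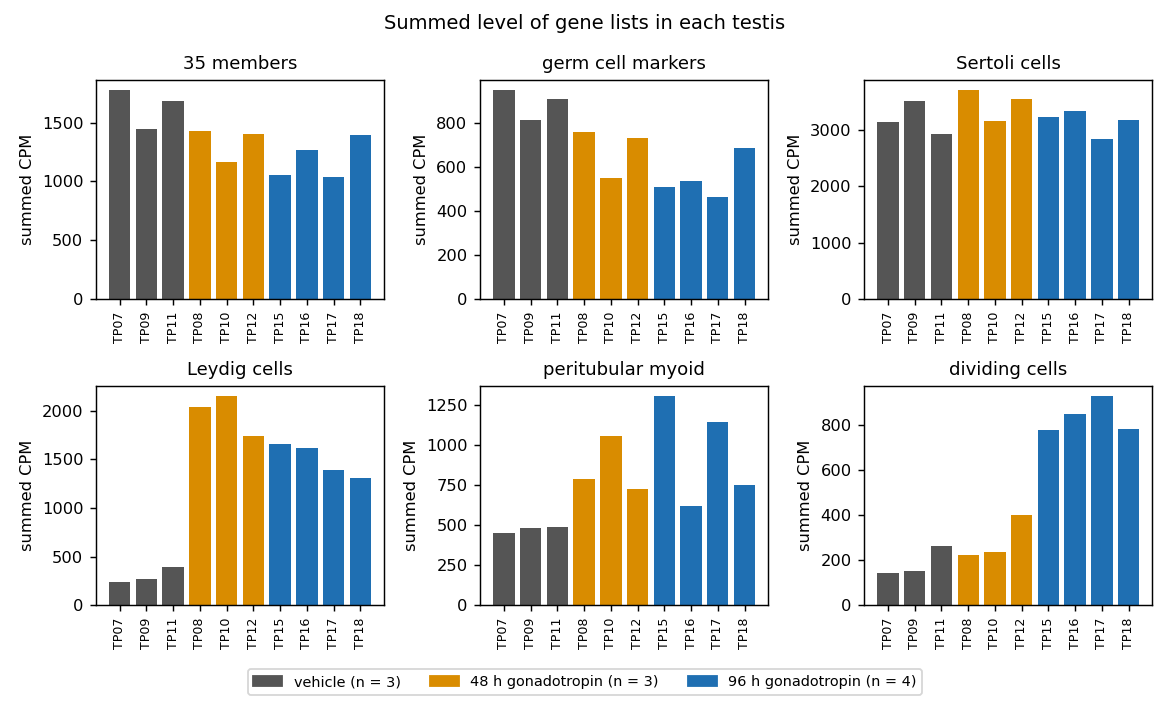
Summed CPM of the 35 members and of marker lists in each animal, as bars from 0, coloured by group. The members and the other germ cell markers are lower in all treated animals than in any vehicle animal, while the Leydig and peritubular myoid sums are higher. Sertoli sums overlap across the groups, and those of dividing cells are highest at 96 h.

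Summed Leydig and myoid markers were higher than in vehicle at both times. The sums of dividing cell markers were higher at 96 h and overlapped with vehicle at 48 h. Leydig cell markers (7 of 8 measured) summed to 245 to 395 CPM in vehicle, 1738 to 2148 CPM at 48 h and 1308 to 1658 CPM at 96 h, and 6 rose at either time. Peritubular myoid markers (8 of 8) summed to 450 to 487, 723 to 1057 and 617 to 1301 CPM in the same order, with TP10 highest at 48 h and TP15 and TP17 highest at 96 h. Macrophage markers (8 of 8) rose in 3 cases at 96 h and summed to 90.5 to 198, 155 to 251 and 191 to 375 CPM, with the same 3 animals highest in their groups. Sertoli markers (15 of 19), with 4 rises at either time and 1 fall at 96 h, summed to 2925 to 3507, 3159 to 3706 and 2833 to 3335 CPM. Endothelial markers summed to 62.6 to 93.1, 68.9 to 136 and 56.8 to 126 CPM, and red cell genes to 31.9 to 122, 25.9 to 157 and 125 to 425 CPM, with 0 calls in either. Markers of dividing cells (7 of 10) rose in 6 cases at 96 h and 1 at 48 h, with sums of 146 to 265, 225 to 400 and 777 to 927 CPM. Beside these marker counts, 8.53% of all loci were higher and 3.67% lower at 48 h. At 96 h the shares were 10.6% and 6.89%. Each measured marker had counts in every group, and the part of these shifts in the falls of the members was not tested.

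Other genes of the pathway and around it were taken from lists that hold no member. A first list joined germ cell piRNA genes with widely expressed genes and with DICER1, DROSHA, DGCR8 and AGO4 of other small RNA routes. Of its 27 measured genes 2 rose and 2 fell at 96 h, where 10.6% of all loci were higher and 6.89% lower. The 27 had a median of -0.10, which is not a value for the germ cell genes alone. Those that fell were MORC1 and DNMT3L, germ cell factors of transposon silencing, at -0.84 ± 0.20 (adjusted p = 0.0181 in edgeR) and -0.98 ± 0.26 (adjusted p = 0.0275 in edgeR). PIWIL3, SPOCD1, BTBD18 and TDRD15 had log2 values of -0.93, -0.70, -0.70 and -0.54 at 96 h. TCFL5 and HSPA2 had 0.33 and 0.31. None of these was called, and they were picked after their values were seen. SND1, a tudor protein of many cell types, rose by 0.72 ± 0.10 (adjusted p = 0.00132 in edgeR) at 48 h and by 0.70 ± 0.09 (adjusted p = 0.000916 in edgeR) at 96 h. At 48 h 3 of the 27 rose and 2 fell, where 8.53% of all loci were higher and 3.67% lower. FKBP5, a co-chaperone, rose at both times, DDX39A, a helicase of RNA export, rose at 48 h, and AGO4, an Argonaute of small RNA silencing, fell at 48 h, with a log2 change of -0.71 ± 0.13 (adjusted p = 0.0057 in edgeR). KIAA0430, an RNA-binding protein of oocytes, also fell at 48 h, with -0.30 ± 0.08 (adjusted p = 0.0323 in edgeR). DNMT3L, as well as DAZAP1, MSI2, EIF4E, COPRS and PRMT7 below, was added after the values were seen. Between 96 h and 48 h the test called 0 of them (219 and 67 loci of the whole table were higher and lower).

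Among 38 RNA-binding and translation genes 5 rose and 4 fell at 96 h, where 10.6% of all loci were higher and 6.89% lower. The median of the 38 at 96 h was -0.11. At 48 h 5 rose and 1 fell, where 8.53% of all loci were higher and 3.67% lower. YBX1 and ELAVL1, RNA-binding proteins of most cells, rose at 96 h by 0.59 ± 0.10 (adjusted p = 0.00456 in edgeR) and 0.57 ± 0.08 (adjusted p = 0.00152 in edgeR). KHDRBS1 and PABPC1, also widely expressed, rose at 96 h by 0.45 ± 0.08 (adjusted p = 0.00486 in edgeR) and 0.65 ± 0.16 (adjusted p = 0.0226 in edgeR). DAZAP1 rose as well, at 0.34, and at 48 h MSI2 and EIF4E rose beside YBX1, ELAVL1 and KHDRBS1. ADAD1 and ELAVL2, known from germ cells, fell at 96 h, with a log2 change of -0.82 ± 0.18 (adjusted p = 0.0119 in edgeR) and -0.81 ± 0.20 (adjusted p = 0.0197 in edgeR). NANOS2, a repressor that keeps spermatogonia undifferentiated, was picked out after its values were seen. It averaged 6.12 ± 1.32 CPM over the 3 vehicle animals (mean ± SD), 3.17 ± 1.21 CPM over the 3 at 48 h and 1.57 ± 1.03 CPM over the 4 at 96 h, with a log2 change of -1.94 ± 0.51 (adjusted p = 0.0274 in edgeR).

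Partners and Sm substrates of PRMT5 were measured for 21 genes. At 48 h 8 rose and 0 fell, the median being 0.28, where 8.53% of all loci were higher and 3.67% lower. At 96 h 8 rose and 2 fell, with a median of 0.31, where 10.6% of all loci were higher and 6.89% lower. The Sm genes SNRPF, SNRPG, SNRPB and SNRPD1 had log2 fold changes of 1.00, 0.91, 0.76 and 0.59 at 48 h. At 96 h the values were 0.75, 0.84, 0.46 and 0.57, and all 8 passed (edgeR adjusted p of at most 0.00712). STRAP and LSM10 rose as well, by 0.61 ± 0.10 (adjusted p = 0.00472 in edgeR) and 0.75 ± 0.13 (adjusted p = 0.00441 in edgeR) at 48 h. Those that fell at 96 h were COPRS, a cofactor that guides PRMT5 to histones, and PRMT7, another arginine methyltransferase, at -0.65 and -0.38. Upper-quartile scaling shifted the median of all loci by -0.13 at 48 h and -0.15 at 96 h. Under it 33 of 35 members were below 0 at 96 h, PRMT5 at 96 h was at -0.05, and the directions of DAZL and MYBL1 did not change.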

How the data were processed

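RNA from the right testis of 10 animals was sequenced from stranded total RNA libraries, per the labels. The submitters' processing notes name genome rheMac8, HTSeq 0.6.1p1, edgeR, TopHat2 2.1.1, cutadapt 1.9.1, Cufflinks 2.2.1 and Bowtie2 2.2.8. The strand setting of the counting is not given in the sources used here. Counts per locus, as deposited by the authors, are whole numbers and were used for every test. The deposited CPM columns served only to compute that the loci of the table hold 98.53% to 98.96% of each library. The authors' deposited log2 fold changes and adjusted p-values are used only where their table is named. Exon start and end positions come from the deposited transcript models, and chromosome names were assigned by the symbols that each sequence holds. CPM columns of 3 vehicle libraries in a second table were not used.

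A member was the locus whose gene name equals the symbol, taking the highest mean count for NANOS1, which has 2 loci. Counts of all 26813 loci were fitted in edgeR 4.0.16 (R 4.3.3) with TMM scaling, 1 mean per group and the robust quasi-likelihood test, with Benjamini-Hochberg adjustment over all loci at 0.05. SE is the log2 fold change over the square root of F. The biological coefficient of variation was 0.259. edgeR's expression filter removed 0 loci. The script was tested on simulated data. Replicate pairs differed by more than sampling noise (chi-square per degree of freedom of 15.8 or more). Floors of 3 counts equal at most 0.137 CPM and cover counting error only. Limma 3.58.1 (voom) and DESeq2 1.42.0 were alternatives. Python 3.11.15 was used for tables and plots. Described in full were all called members and PIWIL1, NANOS3 and TEX14, and of each other pathway list up to 6 called genes with the smallest p. The members and lists were chosen with earlier results of these data known. Of the RNA-binding and translation list, 1 gene is not reported here by name.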

Additional observations from a re-analysis of the deposited data

Results flagged for a closer look

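Among the 35 members, the 4 animals at 96 h were checked for a library far from the others, which chance alone gives in about 1 of 20 such groups. TP17 stood apart for GPAT2, at 7.85 CPM, while the other 3 animals were between 12.2 and 13 CPM. PUM2 was also set apart because its response differed between the times. The 96 h effect exceeded the 48 h effect by 0.41 on the log2 scale in the edgeR fit (adjusted p = 0.0488), with all 4 of the 96 h animals above all 3 of the 48 h animals.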

How the results depend on the processing

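Each count was refitted under 23 other settings. All 21 calls of single members kept their direction in each of them. The 17 falls at 96 h became 7 with age in months as a covariate, 0 with age class as a block, 0 without both animals over 20 months, 6 with glmTreat against a fold of 1.2 and 1 at an adjusted p under 0.01. Omission of 1 animal at a time gave 3 to 21 falls, the extremes being without TP11 and without TP18. RLE scaling gave 15, a fit of the compared groups alone 14, and DESeq2, voom, exactTest, upper-quartile scaling, summed loci and a mean count of at least 50 gave 18 to 20, with all 17 among them. Lower calls over all loci rose too in these, from 6.89% to between 6.98% (summed loci) and 13.2% (upper-quartile scaling). The count of 1 rise at 96 h (MYBL1) was the same in all 23. At 48 h the 1 rise (PRMT5) became 0 under upper-quartile scaling, glmTreat, the 0.01 threshold and without both animals over 20 months, and 0 to 1 with 1 animal left out. The 1 fall at 48 h (DAZL) became 2 under upper-quartile scaling or a mean count of at least 50, 0 without both older animals, and stayed at 1 with any animal left out. Between 96 h and 48 h the 1 rise (PUM2) became 2 with DESeq2 and exactTest, and 0 with RLE or upper-quartile scaling, either age term, the compared groups alone, glmTreat, the 0.01 threshold or without both older animals. It was 0 to 1 with 1 animal left out. The 0 falls there became 2 with DESeq2, which called 2.94% of all loci lower. Apart from the fits with fewer animals, the cause was not tested. The labels give no replicate numbers that the groups share. Vehicle and 48 h animals match in age class, and with that block DAZL at 48 h was at -0.85 (edgeR adjusted p = 0.00361) and PRMT5 at 0.44 (edgeR adjusted p = 0.0142).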

Other observations

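The 4 listed genes without a locus of their own were counted together with a neighbour, so their reads could not be divided. The locus that joins TDRD5 with a second gene was at 30.7 ± 6.08 CPM in vehicle (SD, n = 3), 23.6 ± 4.25 CPM at 48 h (n = 3) and 15.9 ± 2.7 CPM at 96 h (n = 4), with a log2 fold change at 96 h of -0.95 ± 0.18 (SE, edgeR adjusted p = 0.00667). The locus of TDRD6 and SLC25A27 was at 213 ± 10.3, 137 ± 3.36 and 137 ± 11.8 CPM in the same order, with -0.63 ± 0.09 at 48 h (edgeR adjusted p = 0.0017) and -0.64 ± 0.08 at 96 h (edgeR adjusted p = 0.000834). The locus of TEX15 and PPP2CB had -0.07 ± 0.16 at 96 h, and that of WDR77 and OVGP1 had -0.23 ± 0.13, neither past the threshold.

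NANOS1 has a second locus on the opposite strand, with 12 to 38 counts per library against 50 to 121 for the locus described. The loci share 830 exonic bases.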
